A study of Mus musculus with 4 samples.

Results

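Histone deacylases, acyltransferases and the complexes that carry them were examined as a set of 39 genes among the 25170 gene symbols measured in mouse embryonic stem cells. The genes were listed by name and function, with earlier results of these data known. They were 11 zinc-dependent deacetylases, 7 sirtuins, 16 subunits of the Sin3, NuRD and CoREST complexes and 5 acetyltransferases. Messenger RNA was sequenced in 4 libraries, 1 per group. The groups were SO (genotype wild type, with a treatment that the labels name only SO and the series text calls an inhibitor), Ldha_KO (Ldha knockout), Ldhb_KO (Ldhb knockout) and WT (wild type E14 cells, untreated). No label states the dose and time of SO or the alleles and clones of the knockouts. All 4 cultures were grown in serum and LIF on gelatin. With 1 library per group there is no replicate, error or p-value, and each difference compares libraries, not conditions. The series title concerns Ldha, lactylation of Hdac1 and the 2-cell state, and the values below answer only how much RNA of these genes each library held.

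Histone tails carry acyl groups on lysines, added by acetyltransferases from acyl-CoA and removed by deacylases. The class I enzymes Hdac1 and Hdac2 work as the catalytic core of Sin3, NuRD and CoREST, whereas Hdac3 works with the NCoR corepressors. Sirtuins depend on NAD and not on a catalytic zinc. Ldha and Ldhb interconvert pyruvate and lactate, and lysine lactylation is an acyl mark in which p300 has been described as a writer and class I deacetylases as erasers. NuRD and Hdac1 are known in embryonic stem cells for silencing genes of other cell states.

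Levels are FPKM (reads scaled by transcript length and library depth). Differences were taken after log2(FPKM + 1), a scale on which 1 is 2-fold and 0.58 is 1.5-fold in FPKM + 1. Every fold call below is on that scale, and for low genes the plain ratio of FPKM is larger. Genes were kept with a level of at least 1 in at least 1 library, which left 13142 genes and 38 of the 39. The exception was Hdac9, a class IIa deacetylase, at 0.187 in SO, 0.271 in Ldha_KO, 0.342 in Ldhb_KO and 0.115 in WT. Levels summed to between 471595 and 526316 per library, highest in WT. The targeted genes went with the labels: Ldha was at 1711 in SO, 154 in Ldha_KO, 2237 in Ldhb_KO and 1774 in WT, and Ldhb at 139 in SO, 158 in Ldha_KO, 5.74 in Ldhb_KO and 76.5 in WT. The 6 stem cell markers summed to 2707 to 3192 in all 4 libraries, none below 124. The 8 feeder fibroblast markers summed to 47.1 in SO, 41.4 in Ldha_KO, 51.8 in Ldhb_KO and 49.6 in WT, mostly Thy1, with Lum at 0 throughout. The 8 markers of 2-cell-like cells summed to 86.1 in SO, 63.5 in Ldha_KO, 9.29 in Ldhb_KO and 9.44 in WT, the 6 of primitive endoderm to 6.39 in SO, 6.08 in Ldha_KO, 3.72 in Ldhb_KO and 3.86 in WT, and the 6 of trophectoderm to 81.0 in SO, 75.3 in Ldha_KO, 89.5 in Ldhb_KO and 46.3 in WT. In bulk RNA, fewer cells of a type and less RNA per cell cannot be told apart. Among genes with values under 0.2 in both libraries of a pair, the commonest ratio of values had a spread over genes (10th to 90th percentile) of 0.0167% for SO and WT and 0.219% for Ldha_KO and Ldhb_KO, against 0.431% to 0.576% for the other pairs. The 0.219% of the knockouts lies between 0.0167% and 0.431%, so these spreads do not by themselves divide the libraries into 2 pairs. No batch is labelled. Each knockout against WT is among the pairs with the larger spread, and what lies behind that spread cannot be told apart from the genotype there.

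The genes spanned a wide range of levels. Rbbp7, a histone chaperone, had the highest mean, 199 FPKM, which was above 97.2% of the kept genes; 49.7% of its transcript is shared with other genes at 95% identity or more, mainly the processed pseudogene Gm6382, so its level is uncertain. Hdac1 averaged 48.1 FPKM, above 84.2%, and Hdac2 115 FPKM, above 94.5%. Apart from Hdac6, the class II, class IV and mitochondrial enzymes lay lower, with Hdac10 at a mean of 1.89 FPKM, above 14.2%. Subunits of the complexes were mostly among the more abundant transcripts, and 9 of the 38 kept genes, all of them deacetylases, sirtuins or Crebbp, averaged under 10 FPKM.

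**Figure D1:**
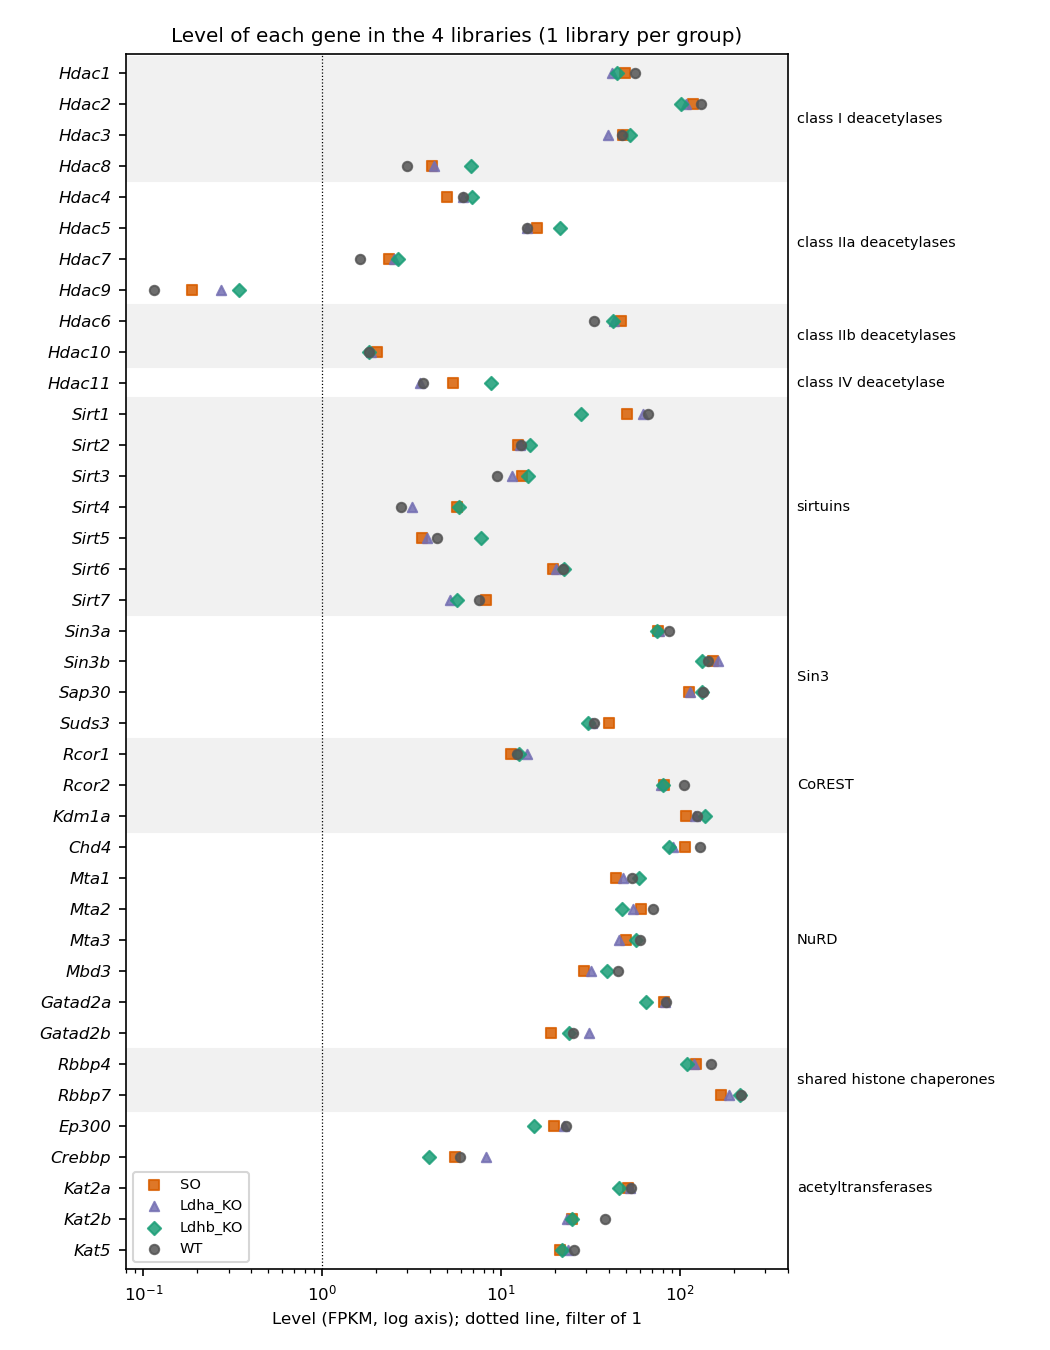
Level in FPKM on a log axis of each of the 39 genes, by role, with 1 point for each library (SO, Ldha_KO, Ldhb_KO and WT) and a dotted line at the filter of 1. The complex subunits sit between 11.3 and 221, and Hdac9 stays left of the line in all libraries.

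Few of the genes differed much between libraries. In SO against WT, 0 of 38 genes were 2-fold higher, where 2.69% of all kept genes were, and 0 were 2-fold lower, where 0.472% were. At 1.5-fold, 1 gene was higher (Sirt4; 8.28% of kept genes) and 2 were lower (Mbd3 and Kat2b; 4.29%). In Ldha_KO against WT, 0 genes were 2-fold higher or lower, where 2.65% and 1.06% of kept genes were. At 1.5-fold, 0 were higher (8.94%) and 1 was lower, Kat2b (6.31%). Ldhb_KO held the only differences from WT that were 2-fold in FPKM + 1: Hdac11 was higher (1 gene, 3.36% of kept genes) and Sirt1 was lower (1 gene, 1.09%). Plain FPKM ratios to WT also passed 2 for Sirt4 in SO (2.05) and Ldhb_KO (2.12) and for Hdac8 in Ldhb_KO (2.27). At 1.5-fold, 4 genes were higher in Ldhb_KO (Hdac8, Hdac11, Sirt4 and Sirt5; 12.6%) and 2 lower (Sirt1 and Kat2b; 7.20%). The 4 higher genes each averaged under 10 FPKM. In that comparison 1652 of 13142 kept genes were 1.5-fold higher, but 347 of the 6973 with a mean of at least 10. Calls as higher were thus commoner among low genes in general. Ldha_KO against Ldhb_KO gave Sirt1 as higher (1 gene, 1.67%) and Hdac11 as lower (1 gene, 1.54%) at 2-fold. At 1.5-fold it gave 2 as higher (Sirt1 and Crebbp; 6.51%) and 3 as lower (Hdac11, Sirt4 and Sirt5; 8.09%). Counts this small among 38 genes are not read as a result about the set.

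The median difference of the 38 genes was -0.17 in SO, -0.066 in Ldha_KO and -0.074 in Ldhb_KO against WT, beside -0.035 for SO, -0.031 for Ldha_KO and -0.022 for Ldhb_KO over all kept genes. Between Ldha_KO and Ldhb_KO it was -0.071, beside -0.022. The comparisons with WT share that library. Among genes with a mean of at least 10 FPKM, the medians of the 29 members were -0.20 in SO, -0.11 in Ldha_KO and -0.10 in Ldhb_KO against WT and 0.012 between the knockouts, beside -0.13 for SO, -0.11 for Ldha_KO, -0.14 for Ldhb_KO and 0.016 between the knockouts over the 6973 genes at that level. Across the 4 libraries the highest level + 1 reached 1.5 times the lowest in 9 of 38 members (23.7%), beside 39.8% of kept genes, and in 4 of the 29 above a mean of 10 (13.8%), beside 28.7%. SO against WT and Ldha_KO against Ldhb_KO share no library; 17 of 38 members (44.7%) had the same sign in both, beside 49.1% of kept genes.

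**Figure D2:**
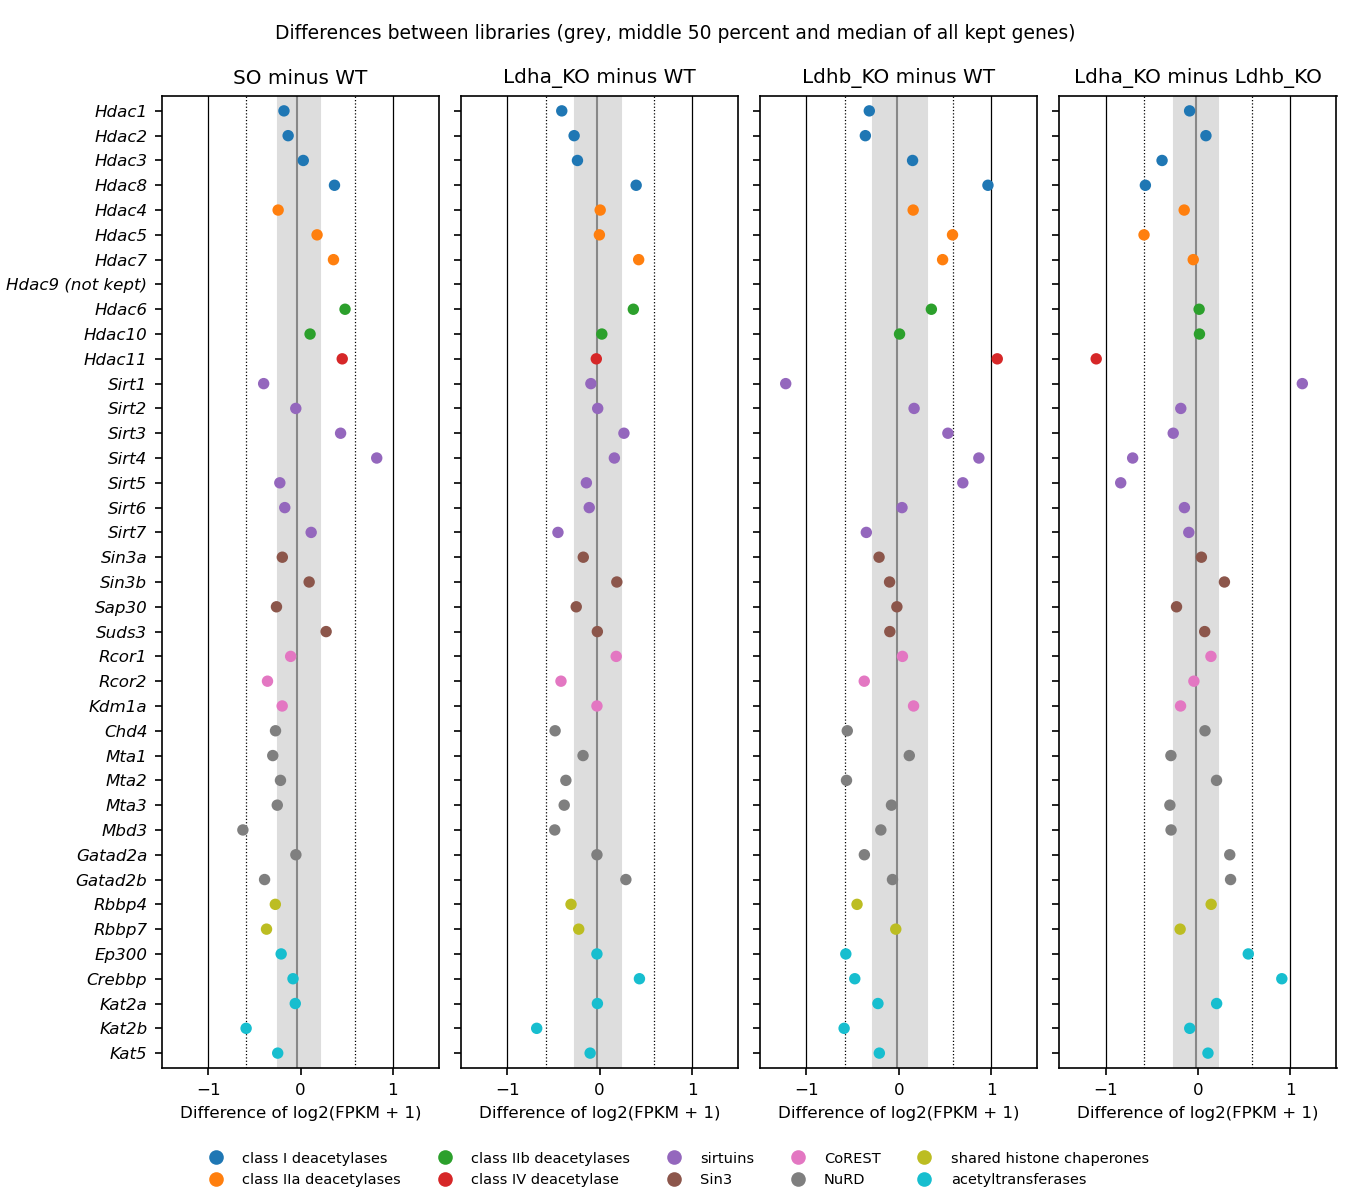
Difference of log2(FPKM + 1) for each kept gene in each comparison, coloured by role, with the middle 50% and the median of all kept genes in grey, dotted lines at 1.5-fold and solid lines at 2-fold. Sirt1 and Hdac11 pass the solid lines, both in the panels with Ldhb_KO.

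Sirt1, the nuclear NAD-dependent deacetylase of histones and p53, was at 50.4 FPKM in SO, 62.4 in Ldha_KO, 28.0 in Ldhb_KO and 66.7 in WT. Ldhb_KO was the low library, and SO lay between it and the other two. The difference was -0.40 in SO, -0.095 in Ldha_KO and -1.23 in Ldhb_KO against WT, and 1.13 between Ldha_KO and Ldhb_KO. In Ldhb_KO against WT, 0.426% of kept genes had a lower difference than Sirt1. The difference of Ldhb_KO from WT stayed between -1.25 and -1.10 over the other settings, but the small one of Ldha_KO changed sign with the scaling. The ratio of levels was 2.23 for Ldha_KO over Ldhb_KO and 2.39 for WT over Ldhb_KO. The spreads of low-value ratios in these pairs were 0.219% and 0.431%, and whether these spreads reflect a batch was not tested. An antisense gene, Gm16145, overlaps 65 exon bases of Sirt1, and no source used here gives the strand of counting.

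The promoters of the 2 genes past 2-fold and of Kat2b are shown, 250 bases before to 50 after their starts. They are from RefSeq in GRCm38.p6. Kat2b was lower by 1.5-fold against WT, a call that ended under both rescalings. The plan was to show promoters only where members move together, which these genes did not. Capitals mark matches on either strand to the E-box CACGTG, to CCAAT, which reads ATTGG on the other strand, and to the Sp1 GC box GGGCGG, which reads CCGCCC there; GC boxes may overlap. Sirt1 lies at chr10:63338986-63339285 on the minus strand, Hdac11 at chr6:91156565-91156864 on the plus strand and Kat2b, at the first of its listed starts, at chr17:53566721-53567020 on the plus strand.
Sirt1: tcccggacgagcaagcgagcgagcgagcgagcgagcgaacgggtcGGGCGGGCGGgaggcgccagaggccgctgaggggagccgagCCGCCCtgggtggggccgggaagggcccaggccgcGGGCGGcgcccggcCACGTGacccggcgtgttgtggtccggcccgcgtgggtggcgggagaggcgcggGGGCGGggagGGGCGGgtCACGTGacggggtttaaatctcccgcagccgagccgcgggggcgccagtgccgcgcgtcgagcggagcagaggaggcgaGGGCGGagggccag
Hdac11: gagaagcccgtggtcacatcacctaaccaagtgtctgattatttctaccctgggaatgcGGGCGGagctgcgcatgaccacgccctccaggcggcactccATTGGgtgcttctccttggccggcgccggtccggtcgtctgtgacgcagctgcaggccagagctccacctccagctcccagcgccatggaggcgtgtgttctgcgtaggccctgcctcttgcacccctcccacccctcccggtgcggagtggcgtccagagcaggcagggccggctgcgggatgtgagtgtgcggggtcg
Kat2b: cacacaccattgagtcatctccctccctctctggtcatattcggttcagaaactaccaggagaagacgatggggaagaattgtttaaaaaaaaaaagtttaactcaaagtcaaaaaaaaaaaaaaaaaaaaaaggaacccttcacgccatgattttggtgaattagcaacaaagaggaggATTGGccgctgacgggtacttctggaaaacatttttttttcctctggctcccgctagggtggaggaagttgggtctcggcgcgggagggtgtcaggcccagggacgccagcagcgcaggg
The Sirt1 window was 79% G and C with 47 CpG, 2 E-boxes and 7 GC boxes. That of Hdac11 was 66.7% G and C with 22 CpG, 1 CCAAT and 1 GC box, and that of Kat2b was 47% with 11 CpG and 1 CCAAT. RefSeq gave promoters for 35 of the 39 genes, in 47 windows; Hdac1, Hdac3, Hdac10 and Mta3 had none. Of these windows 70.2% held a GC box, 46.8% a CCAAT, 10.6% an E-box and 2.13% the NRF1 palindrome, against 35.7%, 37.4%, 7.15% and 0.971% of the 32851 promoters. The windows had a median of 61.3% G and C and 22 CpG, against 52.7% and 7, and the composition was not matched. A match is a description of letters and not a site in use.

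In the comparisons with Ldhb_KO the other sirtuins differed less than Sirt1. Sirt4, a mitochondrial lipoamidase and ADP-ribosyltransferase, was at 5.66 FPKM in SO, 3.20 in Ldha_KO, 5.86 in Ldhb_KO and 2.76 in WT, with SO and Ldhb_KO high. Its difference from WT was 0.83 in SO and 0.87 in Ldhb_KO, and that between Ldha_KO and Ldhb_KO was -0.71. With a pseudocount of 0.1 it passed 2-fold in both (1.01 and 1.06). Sirt5, the mitochondrial desuccinylase, was at 3.62 in SO, 3.88 in Ldha_KO, 7.72 in Ldhb_KO and 4.39 in WT. Ldhb_KO stood alone as high, by 0.69 over WT, and Ldha_KO was 0.84 lower than Ldhb_KO. Stretches of its transcript are shared at 95% identity or more with 169 other genes over 43.0% of its length, so its reads are uncertain. Sirt3, the main mitochondrial deacetylase, was at 13.1 in SO, 11.5 in Ldha_KO, 14.1 in Ldhb_KO and 9.46 in WT, with differences from WT of 0.43 in SO, 0.26 in Ldha_KO and 0.53 in Ldhb_KO, the last past 1.5-fold under both rescalings (0.64 and 0.65). Other genes share 34.9% of its transcript, mainly Ric8a, so its level is uncertain too. Psmd13, on the other strand, overlaps 152 exon bases of Sirt3 and was at 117 in SO, 112 in Ldha_KO, 116 in Ldhb_KO and 136 in WT. The strand of counting is not known. Sirt2, a cytoplasmic deacetylase of tubulin, was at 12.4 in SO, 12.7 in Ldha_KO, 14.6 in Ldhb_KO and 12.9 in WT, and Sirt6, a chromatin deacetylase, at 19.5 in SO, 20.4 in Ldha_KO, 22.6 in Ldhb_KO and 22.1 in WT, each within a narrow band. Sirt7, of the nucleolus, was at 8.20 in SO, 5.21 in Ldha_KO, 5.65 in Ldhb_KO and 7.49 in WT, lower by 0.45 in Ldha_KO and by 0.35 in Ldhb_KO than in WT.

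Hdac1, the enzyme in the series title, was at 49.4 FPKM in SO, 42.0 in Ldha_KO, 44.7 in Ldhb_KO and 56.1 in WT, which was the highest. It was not called in any comparison: the differences from WT were -0.18 in SO, -0.41 in Ldha_KO and -0.32 in Ldhb_KO, against -0.024 in SO, -0.27 in Ldha_KO and -0.20 in Ldhb_KO after each library was scaled to the sum of WT. Processed pseudogenes share 71.1% of its transcript at 95% identity or more, so its level is uncertain. Hdac2, its paralog in the same complexes, was at 119 in SO, 108 in Ldha_KO, 101 in Ldhb_KO and 131 in WT, with differences of -0.13 in SO, -0.28 in Ldha_KO and -0.36 in Ldhb_KO. Hdac3 was at 48.2 in SO, 39.8 in Ldha_KO, 52.4 in Ldhb_KO and 47.2 in WT; Ldha_KO was low, 0.39 under Ldhb_KO. Hdac8, a class I enzyme that deacetylates cohesin, was at 4.13 in SO, 4.22 in Ldha_KO, 6.75 in Ldhb_KO and 2.97 in WT. Ldhb_KO was high by 0.97 over WT, just under 2-fold in FPKM + 1, and passed it under both rescalings (1.07 each). The plain ratio of FPKM was 2.27. Ldha_KO was 0.57 lower than Ldhb_KO, which passed 1.5-fold by median ratio (-0.59) and with a pseudocount of 0.1 (-0.66).

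Hdac11, the single class IV enzyme and a remover of long fatty acyl groups from lysine, was at 5.37 FPKM in SO, 3.54 in Ldha_KO, 8.74 in Ldhb_KO and 3.65 in WT. Ldhb_KO was high, SO lay between, and Ldha_KO and WT were close. The difference from WT was 1.07 in Ldhb_KO and 0.45 in SO (0.59, past 1.5-fold, when scaled to the sum of WT), and Ldha_KO was 1.10 lower than Ldhb_KO. The value of Ldhb_KO against WT lay between 1.07 and 1.24 over the other settings, but the gene averaged only 5.33 FPKM and left the set at a mean of 10. Its transcript shares 22.4% of its length with Gm44002 on the other strand.

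Among class IIa enzymes, which carry signals between cytoplasm and nucleus and have little catalytic activity of their own, Hdac5 was at 15.97 FPKM in SO, 13.96 in Ldha_KO, 21.43 in Ldhb_KO and 13.99 in WT. Ldhb_KO was again high, 0.58 over WT and over Ldha_KO, just short of 1.5-fold in FPKM + 1 in each. The plain ratios of FPKM were 1.53 over WT and 1.54 over Ldha_KO. Over WT it passed under both rescalings (0.70 each) and with a pseudocount of 0.1 (0.61); Ldha_KO was lower than Ldhb_KO past 1.5-fold by median ratio (-0.60) and with that pseudocount (-0.61). Hdac4 was at 5.02 in SO, 6.15 in Ldha_KO, 6.93 in Ldhb_KO and 6.12 in WT, and Hdac7 at 2.37 in SO, 2.53 in Ldha_KO, 2.66 in Ldhb_KO and 1.63 in WT. With a pseudocount of 0.1, Hdac7 passed 1.5-fold over WT in Ldha_KO (0.60) and Ldhb_KO (0.67). Relative to the median of all kept genes, the median of the 3 kept class IIa genes was 0.21 in SO, 0.037 in Ldha_KO and 0.50 in Ldhb_KO against WT. In class IIb, Hdac6, the tubulin deacetylase, was at 46.6 in SO, 42.9 in Ldha_KO, 42.5 in Ldhb_KO and 33.1 in WT, lowest in WT, and its 0.48 in SO passed 1.5-fold with libraries scaled to the sum of WT (0.64). Hdac10, a polyamine deacetylase, was at 2.03 in SO, 1.87 in Ldha_KO, 1.83 in Ldhb_KO and 1.82 in WT, almost level.

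**Figure D3:**
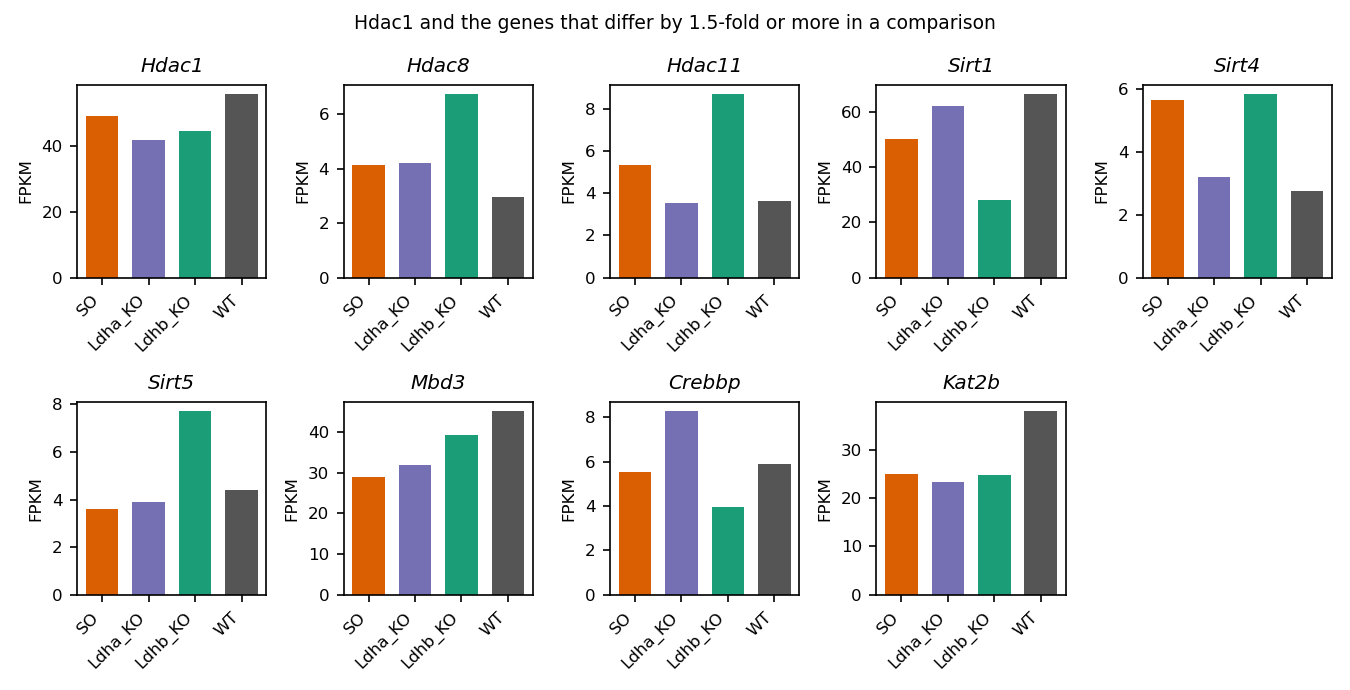
Level in FPKM of Hdac1 and of the 8 genes that reached 1.5-fold in a comparison, as 1 bar for each library on an axis from 0. Sirt1 is at 28.0 in Ldhb_KO, against 50.4 or more in the other libraries, while Hdac8, Hdac11 and Sirt5 are highest in Ldhb_KO.

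Subunits of Sin3 were close to level. Sin3a, one of the scaffold pair, was at 75.6 FPKM in SO, 76.6 in Ldha_KO, 74.7 in Ldhb_KO and 86.8 in WT, and Sin3b at 153 in SO, 163 in Ldha_KO, 134 in Ldhb_KO and 144 in WT. Sap30 and Suds3, which stabilise the complex, were at 113 in SO, 113 in Ldha_KO, 133 in Ldhb_KO and 135 in WT and at 40.2 in SO, 32.4 in Ldha_KO, 30.8 in Ldhb_KO and 33.0 in WT. In CoREST, the scaffold Rcor1 was at 11.3 in SO, 14.1 in Ldha_KO, 12.7 in Ldhb_KO and 12.3 in WT and its relative Rcor2 at 81.8 in SO, 78.3 in Ldha_KO, 80.8 in Ldhb_KO and 105 in WT. The demethylase Kdm1a was at 108 in SO, 122 in Ldha_KO, 139 in Ldhb_KO and 124 in WT. None of these 7 genes reached 1.5-fold, and the medians of both groups relative to all kept genes lay between -0.16 and 0.076 in every comparison.

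NuRD joins deacetylation to nucleosome remodelling by Chd4. Chd4 was at 107 FPKM in SO, 92.1 in Ldha_KO, 87.3 in Ldhb_KO and 129 in WT, with WT high and differences of -0.27 in SO, -0.48 in Ldha_KO and -0.56 in Ldhb_KO. Mbd3, the methyl-CpG-domain subunit, was at 29.0 in SO, 32.0 in Ldha_KO, 39.4 in Ldhb_KO and 45.2 in WT. SO was the lowest, 0.62 under WT, but the difference was -0.47 and -0.52 under the 2 rescalings, which ended the 1.5-fold call. Mta2 was at 61.0 in SO, 54.9 in Ldha_KO, 47.6 in Ldhb_KO and 71.0 in WT, and Mta1 at 43.9 in SO, 47.8 in Ldha_KO, 58.8 in Ldhb_KO and 54.3 in WT, so that Ldhb_KO was the lowest library for Mta2 and the highest for Mta1. Mta3 was at 50.1 in SO, 45.6 in Ldha_KO, 56.6 in Ldhb_KO and 59.9 in WT. Gatad2a, which bridges the remodelling and the deacetylase modules, was at 81.3 in SO, 82.5 in Ldha_KO, 64.8 in Ldhb_KO and 84.2 in WT, and its paralog Gatad2b at 19.1 in SO, 31.0 in Ldha_KO, 24.1 in Ldhb_KO and 25.3 in WT. The histone chaperones shared by Sin3 and NuRD, Rbbp4 and Rbbp7, were at 124 in SO, 120 in Ldha_KO, 109 in Ldhb_KO and 150 in WT and at 171 in SO, 189 in Ldha_KO, 216 in Ldhb_KO and 221 in WT. Rbbp4 shares 35.9% of its transcript with Sync and Gm26722, so both levels are uncertain.

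The 7 NuRD genes had median differences of -0.27 in SO, -0.37 in Ldha_KO and -0.19 in Ldhb_KO against WT, and 0.076 between the knockouts. Their sums were 391 in SO, 386 in Ldha_KO, 379 in Ldhb_KO and 469 in WT. WT also had the largest sum over all genes, and rescaling to it moved the median of all kept genes to 0.10 in SO, 0.090 in Ldha_KO and 0.082 in Ldhb_KO, against -0.035 in SO, -0.031 in Ldha_KO and -0.022 in Ldhb_KO as deposited. Relative to that median the NuRD genes were at -0.24 as deposited and -0.22 rescaled in SO. They were at -0.33 and -0.32 in Ldha_KO, and at -0.17 and -0.16 in Ldhb_KO. All genes with a mean of at least 10, a level that each NuRD gene had, had medians of -0.13 in SO, -0.11 in Ldha_KO and -0.14 in Ldhb_KO. These are as deposited and not relative to all kept genes, so they stand beside the NuRD medians of -0.27, -0.37 and -0.19. The 2 shared chaperones had medians of -0.32 for SO, -0.27 for Ldha_KO and -0.24 for Ldhb_KO, and these medians kept their sign under both rescalings. In Ldhb_KO that rests on Rbbp4 at -0.45, since Rbbp7 was at -0.033 and changed sign under both rescalings (0.086 and 0.095). A rescaling moves the genes of a library nearly alike, so a median that lies near 0 changes sign: those of class I, the sirtuins and Sin3 did so in at least 2 of the 3 comparisons with WT, and those of CoREST, class IV and the acetyltransferases in Ldha_KO. Of single members, 6 in SO, 11 in Ldha_KO and 6 in Ldhb_KO changed sign against WT with the scaling, and 1 between the knockouts.

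**Figure D4:**
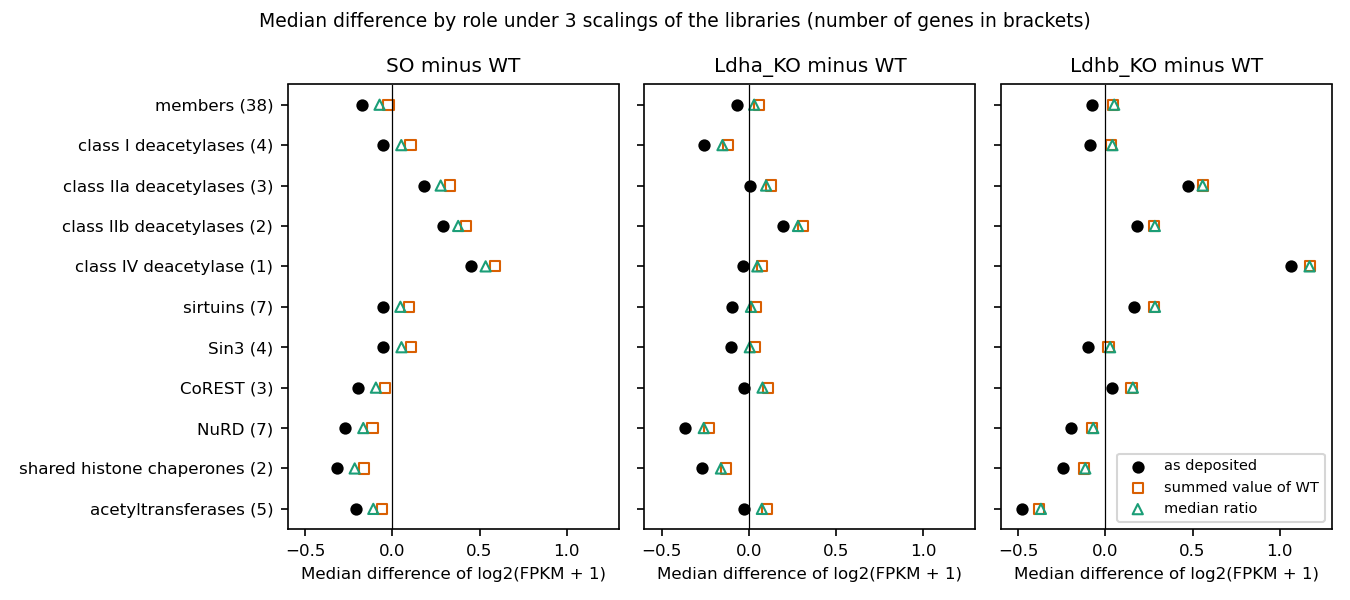
Median difference of log2(FPKM + 1) from WT by role, as deposited and under the 2 rescalings of the libraries, with the number of kept genes in brackets. NuRD and the shared chaperones stay left of 0 in all 3 panels, and class IIa and class IIb stay right of it.

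Among acetyltransferases, Kat2b, also called PCAF, was at 25.0 FPKM in SO, 23.3 in Ldha_KO, 24.9 in Ldhb_KO and 38.1 in WT. WT stood alone as high, with differences of -0.59 in SO, -0.68 in Ldha_KO and -0.59 in Ldhb_KO; since all use the same WT library, they are not separate observations. The calls ended under both rescalings (-0.44 and -0.49 in SO, -0.55 and -0.58 in Ldha_KO, -0.48 and -0.47 in Ldhb_KO). The summed trophectoderm markers went the other way and were lowest in WT. The largest difference among them was in the keratin Krt19, at 32.2 in SO, 20.4 in Ldha_KO, 34.1 in Ldhb_KO and 6.38 in WT. Of the other keratins in that list, Krt18 was lowest in WT (14.8) and Krt8 was lowest in SO (19.3, against 19.7 in WT). The regulators in that list were mixed: Cdx2 was highest in WT (0.433), Elf5 was lowest in WT (0.159) and Eomes was lowest in Ldhb_KO (3.77). Any part of these markers in the level of Kat2b was not tested. A processed pseudogene, Kat2b-ps, shares 53.3% of its transcript at 95.1% identity. Its paralog Kat2a, also called GCN5, was level at 51.3 in SO, 52.5 in Ldha_KO, 45.5 in Ldhb_KO and 53.4 in WT. Crebbp, the CBP coactivator, was at 5.51 in SO, 8.28 in Ldha_KO, 3.95 in Ldhb_KO and 5.89 in WT, with Ldha_KO 0.91 above Ldhb_KO (a plain FPKM ratio of 2.10). Ep300, the p300 coactivator, was at 19.9 in SO, 22.6 in Ldha_KO, 15.2 in Ldhb_KO and 23.1 in WT, with the same libraries high and low among the knockouts and a difference of 0.54. Its -0.57 in Ldhb_KO against WT passed 1.5-fold with a pseudocount of 0.1 (-0.60). Kat5, the catalytic subunit of TIP60, was at 21.3 in SO, 23.7 in Ldha_KO, 21.9 in Ldhb_KO and 25.5 in WT. It shares 19.8% of its transcript with Rnaseh2c on the other strand, at 37.9 in SO, 23.6 in Ldha_KO, 23.0 in Ldhb_KO and 33.4 in WT. The median of the 5 genes relative to all kept genes was -0.17 in SO, 0.0015 in Ldha_KO and -0.45 in Ldhb_KO against WT, and 0.22 between the knockouts.

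Shares within pairs of paralogs do not depend on the scaling of a library. They can depend on stretches shared with other genes at 95% identity or more. Such stretches cover 71.1% of the transcript of Hdac1, 53.3% of Kat2b, 49.7% of Rbbp7 and 35.9% of Rbbp4, but 0% of Hdac2 and Kat2a. The shares of these pairs are therefore uncertain, and so is which paralog is the larger. Hdac1 made up 29.4% of the sum of Hdac1 and Hdac2 in SO, 28.0% in Ldha_KO, 30.6% in Ldhb_KO and 30.0% in WT, a span of 2.58 points. Kat2b made up 32.7% of Kat2a and Kat2b in SO, 30.8% in Ldha_KO, 35.3% in Ldhb_KO and 41.6% in WT, the widest span of the 8 families at 10.8 points. Mta2 made up 39.3% in SO, 37.0% in Ldha_KO, 29.2% in Ldhb_KO and 38.4% in WT of the 3 Mta genes, lowest in Ldhb_KO, where Mta1 made up 36.1% of the sum, against 29.3% in WT. Rbbp4 made up 42.0% in SO, 39.0% in Ldha_KO, 33.6% in Ldhb_KO and 40.4% in WT of Rbbp4 and Rbbp7, also lowest in Ldhb_KO. Gatad2b made up 19.0% in SO, 27.3% in Ldha_KO, 27.1% in Ldhb_KO and 23.1% in WT of its pair, lowest in SO. Crebbp made up 21.7% in SO, 26.8% in Ldha_KO, 20.6% in Ldhb_KO and 20.3% in WT of its pair with Ep300, highest in Ldha_KO. Sin3a made up 33.0% in SO, 31.9% in Ldha_KO, 35.8% in Ldhb_KO and 37.7% in WT of the Sin3 pair, and Rcor1 12.2% in SO, 15.2% in Ldha_KO, 13.5% in Ldhb_KO and 10.5% in WT of the Rcor pair. No error can be put on a share from 1 library.

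**Figure D5:**
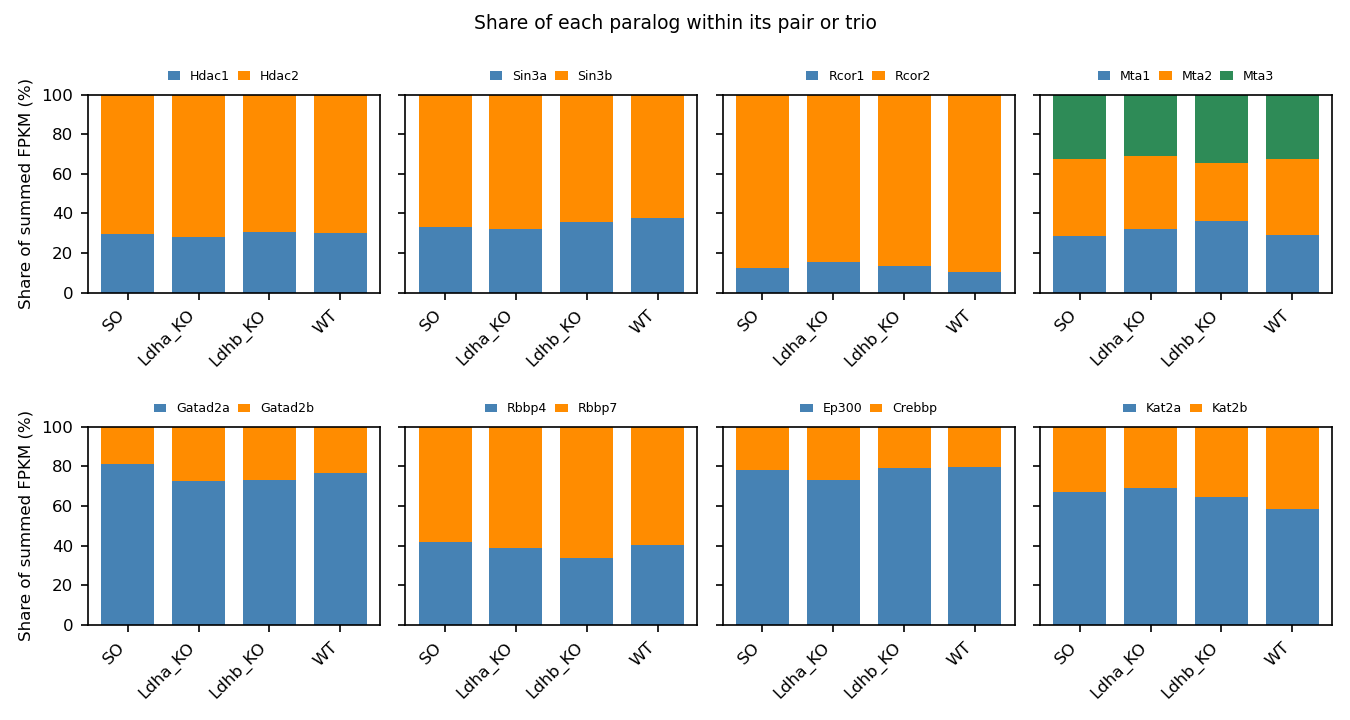
Share in percent of the summed FPKM taken by each paralog in 8 families, as stacked bars for SO, Ldha_KO, Ldhb_KO and WT. The Hdac1 share stays between 28.0% and 30.6%, whereas that of Kat2b lies between 30.8% and 41.6%. Both are uncertain because other genes share parts of these transcripts.

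Other genes of the pathway were taken as 5 lists of 16, 14, 28, 14 and 20 genes that hold no member, all found and kept. Among 28 other acetyltransferases and their subunits, 5 passed 1.5-fold as higher (6.51% of kept genes) and 0 as lower (8.09%) in Ldha_KO against Ldhb_KO, with a median of 0.23, beside -0.022 for all kept genes. Epc1 and Epc2, scaffolds of the TIP60 complex, were the 2 past 2-fold: Epc1 was at 16.1 FPKM in Ldha_KO and 7.06 in Ldhb_KO (1.08), and Epc2 at 22.8 in Ldha_KO and 9.70 in Ldhb_KO (1.16). The other 3 were the acetyltransferase Kat6b and the subunits Brpf1 and Ing5, at 66.1, 28.4 and 22.3 in Ldha_KO and 35.2, 18.0 and 12.2 in Ldhb_KO. Both counts were the same under the 2 rescalings. Against WT, 0 of the 28 reached 1.5-fold in Ldha_KO (8.94% of kept genes were higher and 6.31% lower; 1 of the 28 was higher under either rescaling). In Ldhb_KO 1 was higher (12.6%) and 5 were lower (7.20%), with 4 lower under either rescaling.

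Of all kept genes, the shares past 1.5-fold against WT were 8.28% as higher and 4.29% as lower in SO, 8.94% and 6.31% in Ldha_KO, 12.6% and 7.20% in Ldhb_KO, and 6.51% and 8.09% in Ldha_KO against Ldhb_KO; the counts of the next 3 lists stand beside these shares. Of the 16 other Sin3 and NuRD subunits, 3 were 1.5-fold lower and 0 higher in SO than in WT (Sap25, Sinhcaf and Cdk2ap1), 2 lower in Ldha_KO (Sinhcaf and Cdk2ap1), and 3 lower and 1 higher in Ldhb_KO (Ing1, Arid4a and Cdk2ap1, and Chd3). Cdk2ap1, a small NuRD subunit, was at 20.6 FPKM in SO, 21.1 in Ldha_KO, 24.4 in Ldhb_KO and 40.5 in WT, alone high in WT. Sinhcaf, of the Sin3 complex, was at 62.1 in SO, 64.2 in Ldha_KO, 82.4 in Ldhb_KO and 108 in WT. Medians of this list against WT were -0.15 for SO, -0.15 for Ldha_KO and -0.32 for Ldhb_KO. Of the 3 lower in Ldhb_KO, 1 was left when scaled to the sum of WT and 0 by median ratio. Of 14 other CoREST, NCoR and MiDAC subunits, 1 was higher (Gps2) and 1 lower (Tbl1x) in SO and 1 lower in Ldhb_KO (Ncor1), of which Tbl1x and Ncor1 did not pass under either rescaling, while Ldha_KO against either library had 0. Of 14 readers of acyl-lysine, 0 reached 1.5-fold in SO, 2 were higher in Ldha_KO and 1 was higher in Ldhb_KO than in WT, and Ldha_KO against Ldhb_KO had 2 higher and 1 lower. The bromodomain gene Brd2, 1 of the 2 higher in Ldha_KO than in Ldhb_KO, was at 144 in Ldha_KO and 82.8 in Ldhb_KO (0.79). Under either rescaling, 2 readers in place of 1 were higher in Ldhb_KO than in WT.

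In the list of 20 genes for acyl-CoA and NAD supply, Naprt, which makes NAD from nicotinic acid, was at 4.71 FPKM in SO, 3.85 in Ldha_KO, 11.0 in Ldhb_KO and 9.03 in WT. At 1.5-fold, 2 of the 20 were higher and 2 lower in SO, 3 and 2 in Ldha_KO and 3 and 1 in Ldhb_KO against WT, and 1 and 4 in Ldha_KO against Ldhb_KO, beside the shares of kept genes given for the other lists. Scaled to the sum of WT, 1 was lower in SO than in WT and 2 were lower in Ldha_KO than in Ldhb_KO. Naprt was the 1 gene of the list past 2-fold, lower by 1.05 in Ldha_KO than in WT and by 1.31 than in Ldhb_KO; after rescaling, the difference from WT was -0.93 or -0.95 and no longer passed. Nampt, which salvages nicotinamide, was at 43.9 in SO, 47.2 in Ldha_KO, 71.7 in Ldhb_KO and 53.8 in WT, highest in Ldhb_KO. Acss2, which makes acetyl-CoA from acetate, was at 13.3 in SO, 12.2 in Ldha_KO, 12.4 in Ldhb_KO and 6.23 in WT, lowest in WT, and its 0.98 in SO passed 2-fold under both rescalings (1.13 and 1.07). Aars, an alanyl-tRNA synthetase also described as a lactyltransferase, was at 92.0 in SO, 158 in Ldha_KO, 241 in Ldhb_KO and 143 in WT, highest in Ldhb_KO. Cd38, which consumes NAD, was at 6.54 in SO, 3.03 in Ldha_KO, 2.66 in Ldhb_KO and 5.95 in WT, lower by 0.79 in Ldha_KO and by 0.93 in Ldhb_KO than in WT.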

How the data were processed

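Each group of mouse embryonic stem cells had 1 RNA-seq library. The submitters' processing notes name edgeR 3.26.8, HTSeq 0.11.2, SAMtools 1.9, Bowtie2 2.3.4.3 and the build mm9, with no role or order. The deposited values were read as FPKM made by the authors, from the values alone, and RPKM cannot be told apart from them. No source used here gives the depth in reads, the annotation or the counting strand; low-value steps put depth at 1.05 (SO), 0.995 (Ldha_KO) and 1.05 (Ldhb_KO) times WT.

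Differences of log2(FPKM + 1) were taken between 2 libraries, with Python 3.11.15 and pandas 2.3.3, over the 13142 genes whose value reached 1 in a library, and called at 2-fold and at 1.5-fold. They understate changes of low genes. No test was possible with 1 library per group, and how counting noise spreads single values is unknown. The calling code was tested on simulated data. Members and lists were chosen with earlier results of these data known. Named genes were every member, the genes of the other lists past 2-fold, Ldha, Ldhb and the markers; other names at 1.5-fold were chosen after their values were seen. Of the 92 listed genes, 4 were matched by a RefSeq synonym. Transcripts were compared with BLAST 2.17.0 on a GRCm38 annotation (95% identity, at least 100 bases), a build other than that of the files. Alternatives were a pseudocount of 0.1, no filter, a filter of 5, 2 rescalings and, chosen after seeing the data, a mean of at least 10.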

Additional observations from a re-analysis of the deposited data

How the results depend on the processing

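The settings that only drop genes leave each difference as it is. Of the differences of single members, 148 of 152 kept their side of 2-fold with a pseudocount of 0.1 and 151 of 152 under each rescaling. No difference past 2-fold changed sign, but smaller ones did under rescaling, 6 in SO, 11 in Ldha_KO and 6 in Ldhb_KO against WT and 1 between the knockouts. Sirt4 (SO and Ldhb_KO against WT), Hdac8 (Ldhb_KO against WT) and Crebbp (between the knockouts) passed 2-fold in 6 more cases. The following are the member counts that moved, and the cause was not tested beyond the construction of each setting. With a pseudocount of 0.1, the 2-fold higher count became 1 in SO and 3 in Ldhb_KO against WT and 2 in Ldha_KO against Ldhb_KO, the 1.5-fold higher count 1 in Ldha_KO against WT, and the 1.5-fold lower count 5 between the knockouts and 3 in Ldhb_KO against WT. The 1.5-fold higher count in Ldhb_KO against WT was 6, against 4, with that pseudocount and under both rescalings. Rescaled to the summed value of WT, 1.5-fold counts in SO against WT were 3 higher and 0 lower, with a median of -0.022; Ldha_KO against WT had 0 lower and a median of 0.059; Ldhb_KO against WT had 2 past 2-fold higher, 1 past 1.5-fold lower and a median of 0.042. Rescaled by median ratio, the 1.5-fold lower counts were 0 in SO, 0 in Ldha_KO and 1 in Ldhb_KO against WT and 5 between the knockouts, 2 were 2-fold higher in Ldhb_KO, and medians were -0.073 in SO, 0.030 in Ldha_KO and 0.051 in Ldhb_KO. At a mean of at least 10, a choice made after seeing the data, the 1.5-fold higher count was 0 in SO and 0 in Ldhb_KO against WT and 1 between the knockouts, the 2-fold higher count in Ldhb_KO was 0, and between the knockouts 0 were lower by 2-fold or 1.5-fold, since Hdac8, Hdac11, Sirt4, Sirt5 and Crebbp average less. Over all kept genes, 2-fold counts higher and lower with a pseudocount of 0.1 were 808 and 182 in SO, 868 and 321 in Ldha_KO and 1141 and 311 in Ldhb_KO against WT, and 419 and 574 between the knockouts, against 353 and 62, 348 and 139, 441 and 143, and 219 and 202. Rescaled to the summed value of WT they were 485 and 43, 488 and 98, and 629 and 99 against WT; at a mean of at least 10 they were 94 and 22, 99 and 60, 107 and 74, and 90 and 65. No paired analysis was possible because each group has 1 library. Depth in reads is unknown, so no interval was put on low values such as those of Hdac10 and Hdac9.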
